A study of Rattus norvegicus with 20 samples.

Results

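The genes examined here are the proteasome genes of the rat medial prefrontal cortex (mPFC), taken as all symbols that begin with *Psma*, *Psmb*, *Psmc*, *Psmd*, *Psme*, *Psmf* or *Psmg* followed by a digit. Of 49 such symbols, 48 reached 5 reads or more in 10 or more of the 20 libraries, among 16605 genes that passed this filter and 31038 symbols in all. The 48 genes comprise 18 of the core (*Psma* and *Psmb*), 21 of the regulatory particle (*Psmc* and *Psmd*) and 9 others (*Psme*, *Psmf* and *Psmg*). RNA came from the mPFC of 20 male Sprague-Dawley rats, which were housed singly and entered treatment at 6 to 8 weeks of age according to the labels. LSD was given intraperitoneally to 10 rats at 0.16 mg/kg on alternate days over 90 days, and 10 control rats received sterile saline on the same schedule. The design text places the dissection 3 weeks after treatment ended, whereas the study's methods give a longer interval and an older starting age; both groups carry the same entries. Each library was made from poly(A)-selected RNA of 1 rat and 1 hemisphere, so that mRNA levels, and neither proteasome protein nor its activity, were measured.

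The proteasome is the large protease that degrades proteins tagged with chains of ubiquitin. Its barrel-shaped core is built of outer rings of alpha subunits (*Psma*) and inner rings of beta subunits (*Psmb*), of which a few cut peptide bonds, and a regulatory particle of ATPases (*Psmc*) and non-ATPase subunits (*Psmd*) binds the ubiquitin chain, removes it and feeds the unfolded protein into the core. Other activators (*Psme*) can cap the core in its place, *Psmf1* encodes an inhibitor, and the *Psmg* proteins are chaperones that help to assemble the core. In neurons the proteasome takes part in the turnover of synaptic proteins.

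Not every symbol caught by the name is a subunit of the standard proteasome. *Psmc3ip* encodes a recombination protein named after its partner, *Psmd5*, *Psmd9* and *Psmd10* encode chaperones of the regulatory particle, and *Psmb11* is the beta subunit of the thymus. *Psma8*, the alpha subunit of the testis, was the symbol that failed the filter, with 0 to 4 reads per library. The members nearest to the filter were *Psmb11*, with 23 to 55 reads per library, and *Psmb8*, with 17 to 88 reads, so that all 48 members passed the minimum of 5 reads in every library of both groups.

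The libraries held 16346629 to 25552681 reads on genes in LSD-treated rats and 11098076 to 24201351 in controls. Levels are given as normalised RPM, the reads of a gene scaled to a common library size after TMM normalisation, and they are compared between rats and not between genes, since transcript lengths were not used here. Markers of cortical excitatory neurons were present in every library at a summed level of 3197 to 4925 RPM. The striatal neuron markers *Drd1*, *Drd2*, *Adora2a*, *Rgs9* and *Ppp1r1b* summed to 130 to 331 RPM in LSD-treated rats and to 148 to 466 RPM in controls, with all 5 log2 fold changes negative and 0 past the adjusted threshold in edgeR or DESeq2, although all 5 had an unadjusted p under 0.05 in edgeR. The 4 rats with the highest sums were Saline 8, Saline 9, Saline 2 and LSD 9. In such bulk tissue, fewer cells of a type cannot be told apart from less RNA per cell.

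LSD-treated rats had lower levels of 6 proteasome genes and a higher level of 1. The lower genes were *Psmb3* and *Psmb5* of the core, *Psmc3*, *Psmd4* and *Psmd8* of the regulatory particle, and the assembly chaperone *Psmg4*, and the higher gene was the activator *Psme4*. The 6 genes decreased by 12.0% to 24.4% and *Psme4* was higher by 21.6%. The groups overlapped in all 48 members, and they were free of overlap in 0.193% of all genes tested. By the quasi-likelihood test of edgeR, adjusted after Benjamini and Hochberg over the 16605 genes with a threshold of 0.05, the 6 lower members made up 12.5% of the 48, against 8.54% of all genes, and the 1 higher member 2.08%, against 6.48% of all genes. The log2 fold change was negative in 34 of the 48 members (70.8%), against 49.6% of all genes, and the median was -0.07 over the members and 0.00 over all genes. Without Saline 9, the control with the highest core and regulatory levels, 28 members were negative (49.4% of all genes), the median over the members was -0.03, and 5 members were lower and 0 higher, against 6.64% and 5.2% of all genes in the same fit.

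**Figure D1:**
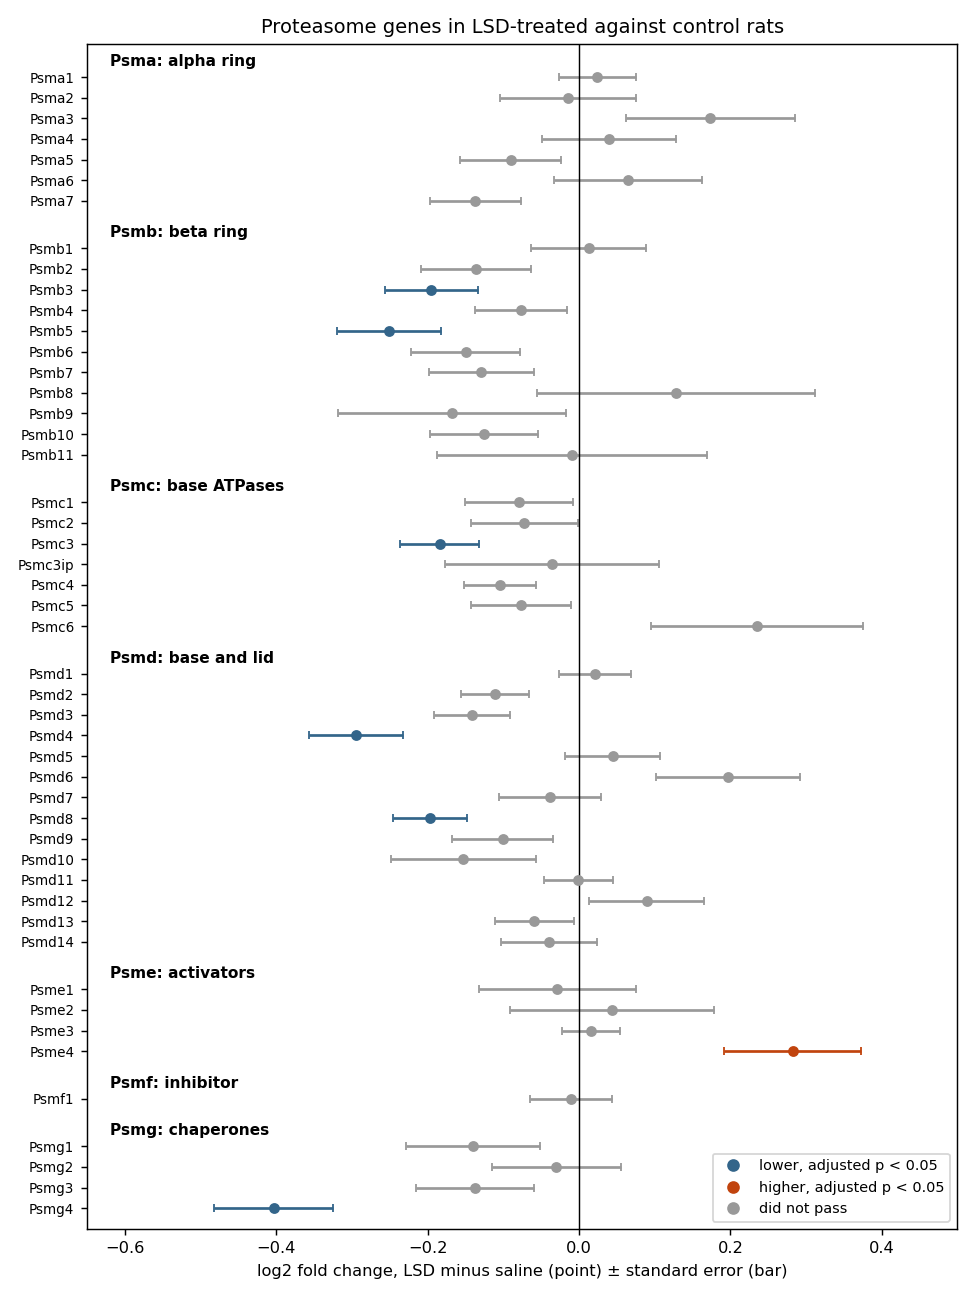
Log2 fold change of each of the 48 proteasome genes, LSD minus saline, from edgeR (horizontal axis, log2 units; point: estimate; bar: standard error; n = 10 rats per group), with genes grouped by family. Lower genes past the adjusted threshold of 0.05 are blue, the 1 higher gene is orange and the other 41 are grey; 34 of 48 points lie left of 0.

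The level of 10 members lay below the control median in all 10 LSD-treated rats, a share of 20.8% against 9.59% of all genes. They were *Psmb3*, *Psmb5*, *Psmc3*, *Psmc4*, *Psmd2*, *Psmd3*, *Psmd4*, *Psmd8*, *Psmg3* and *Psmg4*. The opposite pattern, all 10 LSD-treated rats above the control median, was found in *Psmd6* and *Psme4*, a share of 4.17% against 8.27% of all genes. At an unadjusted p under 0.05, 11 members were lower (22.9%, against 16.4% of all genes) and 1 was higher (2.08%, against 14.4%).

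Both core genes that fell encode subunits of the beta rings. *Psmb5*, the subunit with chymotrypsin-like activity, had 126 RPM in the lowest, 141 in the median and 152 in the highest LSD-treated rat, and 134, 167 and 221 RPM in controls. In 7 of 10 controls it exceeded every LSD-treated rat, while Saline 7, Saline 8 and Saline 10 lay within the range of the LSD group. Its log2 fold change, given with its standard error (SE), was -0.25 (SE 0.0687), and its level decreased by 15.9% (adjusted p = 0.0194, edgeR quasi-likelihood test, n = 10 rats per group). *Psmb3*, a beta subunit with no catalytic site, had 47.3, 50.1 and 54.1 RPM in the lowest, median and highest LSD-treated rat and 48.4, 56.2 and 73.7 RPM in controls. Again 7 controls exceeded every LSD-treated rat, and 4 LSD-treated rats lay below every control. Its log2 fold change was -0.20 (SE 0.0614, adjusted p = 0.0353, edgeR). *Psmb3* has 10 pseudogenes or similar entries in the RefSeq annotation, more than any other member called, so reads may have been split between copies.

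The other catalytic subunits did not pass. *Psmb6*, with caspase-like activity, had 31.0, 35.4 and 37.6 RPM in the lowest, median and highest LSD-treated rat and 30.2, 37.4 and 52.9 RPM in controls, with a log2 fold change of -0.15 (95% interval -0.29 to -0.01, adjusted p = 0.161, edgeR). *Psmb7*, with trypsin-like activity, had 98.7, 107 and 121 RPM against 104, 113 and 163 RPM, with a log2 fold change of -0.13 (95% interval -0.26 to 0.01, adjusted p = 0.210, edgeR). The groups overlapped widely in both, and the highest value of both was that of Saline 9. Of the 7 alpha subunits 0 passed in edgeR or DESeq2. At an unadjusted p under 0.05 in edgeR, 1 was lower and 0 higher, where 16.4% and 14.4% of all genes were. The median log2 fold change of the alpha subunits was 0.02, from -0.14 in *Psma7* to 0.17 in *Psma3*.

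In the regulatory particle, the base and the lid each held genes that fell. *Psmd4*, a ubiquitin receptor of the base, had 111, 123 and 139 RPM in the lowest, median and highest LSD-treated rat and 129.8, 149 and 186 RPM in controls. In 9 of 10 LSD-treated rats it lay below every control, and LSD 1 was the exception. Its log2 fold change was -0.29 (SE 0.0616), and its level decreased by 18.5% (adjusted p = 0.00666, edgeR). *Psmd8*, a lid subunit, had 51.2, 56.0 and 59.8 RPM in LSD-treated rats and 57.9, 63.9 and 78.9 RPM in controls, with 8 controls above every LSD-treated rat. The log2 fold change was -0.20 (SE 0.0493, adjusted p = 0.0130, edgeR). *Psmc3*, 1 of the 6 ATPases that form the ring of the base, had 153, 170.4 and 183 RPM in LSD-treated rats and 167, 192 and 229 RPM in controls, with 7 controls above every LSD-treated rat. For *Psmc3* the log2 fold change was -0.18 (SE 0.0523, adjusted p = 0.0228, edgeR).

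Among the members that did not pass, *Psmd3*, a lid subunit, came nearest. It had 182, 189 and 200.0 RPM in the lowest, median and highest LSD-treated rat and 180.3, 213 and 234 RPM in controls, and its log2 fold change was -0.14 (95% interval -0.24 to -0.04, adjusted p = 0.0595, edgeR). In the opposite direction, the lid subunit *Psmd6* came nearest, with 52.9, 58.2 and 75.3 RPM in LSD-treated rats and 44.8, 51.6 and 75.0 RPM in controls. The log2 fold change was 0.20 (95% interval 0.01 to 0.38, adjusted p = 0.165, edgeR). Saline 2 and Saline 9 were the 2 highest controls for *Psmd6*, and without Saline 2 its log2 fold change was 0.26 (adjusted p = 0.0324, edgeR). Within the ring of ATPases the estimates ran from -0.18 in *Psmc3* to 0.24 in *Psmc6*, whose interval reached from -0.04 to 0.51.

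Outside the core and the regulatory particle, *Psmg4* and *Psme4* changed in opposite directions. *Psmg4*, which acts with *Psmg3* in the assembly of the alpha ring, had the lowest adjusted p of the 48 members. Its level was 10.2, 12.2 and 13.4 RPM in the lowest, median and highest LSD-treated rat and 12.5, 16.1 and 19.7 RPM in controls, from 193 to 377 reads per library. In 9 of 10 controls the level exceeded every LSD-treated rat, and Saline 10 lay within the LSD range. Its log2 fold change was -0.40 (SE 0.0786), and its level decreased by 24.4% (adjusted p = 0.00541, edgeR). Its partner *Psmg3* had a log2 fold change of -0.14 (95% interval -0.29 to 0.02), *Psmg1* of -0.14 (-0.31 to 0.03) and *Psmg2* of -0.03 (-0.20 to 0.14), and none of these passed.

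*Psme4* encodes a large activator that caps the core without ATPases and is known for its part in the degradation of histones. It had 33.7, 38.7 and 49.1 RPM in the lowest, median and highest LSD-treated rat and 24.3, 31.4 and 40.6 RPM in controls. In 6 of 10 controls the level was below that of every LSD-treated rat, and 4 LSD-treated rats lay above every control. With LSD the log2 fold change was 0.28 (SE 0.0907), and its level was higher by 21.6% (adjusted p = 0.0386, edgeR). The interferon-inducible activator genes *Psme1* and *Psme2* had log2 fold changes of -0.03 (95% interval -0.23 to 0.18) and 0.04 (-0.22 to 0.31). The nuclear activator gene *Psme3* stood at 0.02 (-0.06 to 0.09), the narrowest interval of all members, and the inhibitor gene *Psmf1* at -0.01 (-0.12 to 0.10).

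**Figure D2:**
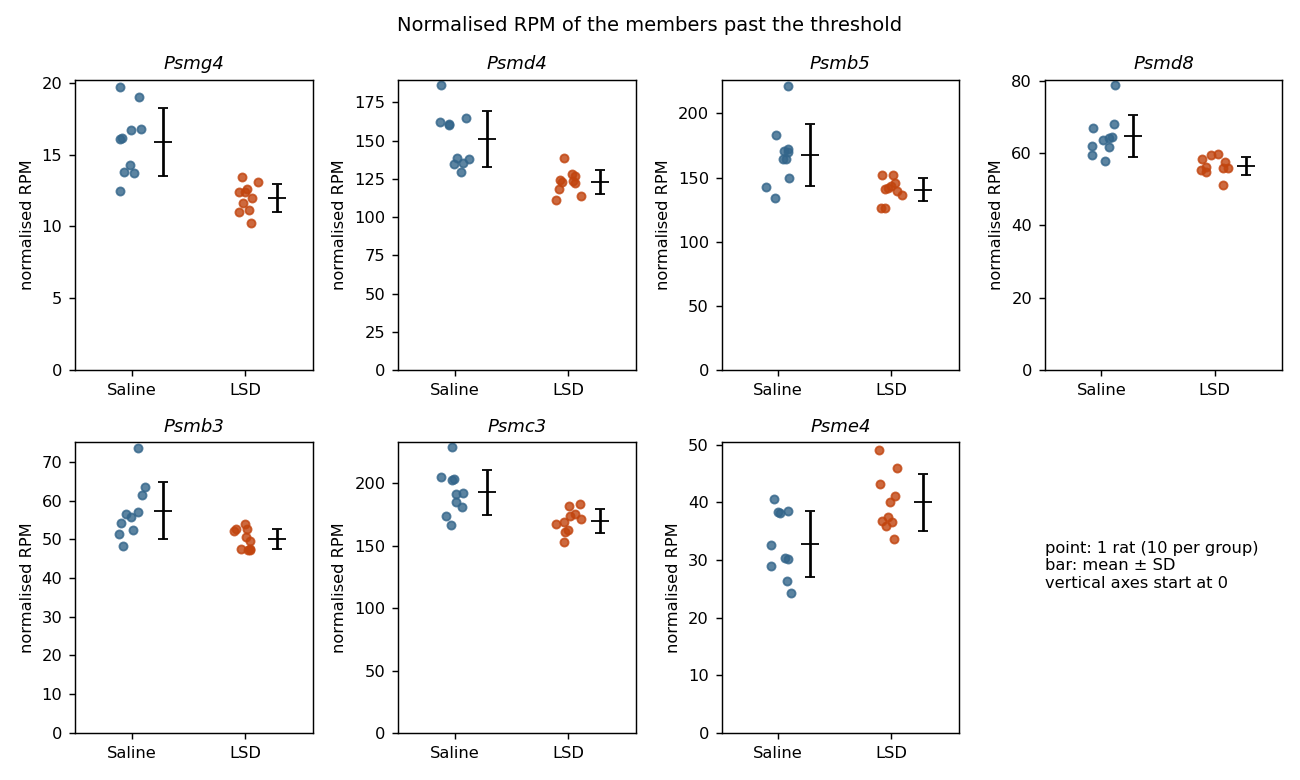
Normalised RPM per rat (vertical axes, each from 0) of the 7 proteasome genes past the threshold, in saline-treated (blue) and LSD-treated (orange) rats; point: 1 rat, bar: mean ± SD, n = 10 per group. In the 6 panels of lower genes the LSD points lie low in the control range or below it, and in the *Psme4* panel 4 LSD points lie above every control.

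Of the 7 calls, 5 held without any 1 rat and 2 did not. *Psmb5*, *Psmc3*, *Psmd4*, *Psmd8* and *Psmg4* passed with each of the 20 rats left out in turn. *Psmb3* did not pass without LSD 2, 3, 4 or 5 or Saline 4, 5 or 9, where its adjusted p reached 0.0654, and *Psme4* did not pass without LSD 2, 4, 5, 7 or 8 or Saline 1, 3, 4, 5, 6 or 9, where it reached 0.0771. With scaling by total counts, which moved the median of all genes to 0.05, 1 member was higher and 2 lower (9.06% and 5.17% of all genes), and the lower ones were *Psmd4* and *Psmg4*.

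The length of a gene in the genome moved with its fold change. Over the 48 members, Spearman's rho between genomic span and log2 fold change was 0.36, the same as over the 14929 genes whose span was known (genes are not independent of each other). *Psme4* has the longest span of all members, 103688 bases, against a median of 9734 bases, and without it rho was 0.32. When each rat's counts were corrected for span, *Psmd4* (-0.24, adjusted p = 0.0117, edgeR) and *Psmg4* (-0.33, adjusted p = 0.0101) passed, whereas *Psme4* did not (0.21, adjusted p = 0.104), nor did *Psmb5* (-0.17, adjusted p = 0.0615) and the other 3. In that fit 7.22% of all genes were lower and 3.86% higher. The part of span in these differences was not tested further.

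Without the 4 rats highest in striatal markers, a choice made after the data were seen, 7 members were lower and 5 higher, against 10.1% and 10.2% of all genes. The lower ones were the 6 named above and *Psmd3*, and *Psme4* (0.36, adjusted p = 0.0169, edgeR) was joined by *Psma3*, *Psmc6*, *Psmd6* and *Psmd12*. The number of negative members was then 24 of 48, against 49.1% of all genes, and the median log2 fold change of the family was -0.00. Saline 9, without which 28 members were negative, is among these 4 rats, and the part of striatal tissue in these values was not tested.

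The core and the regulatory particle were compared as wholes. Of 18 core members 2 were lower (11.1%) and 0 higher, with a median of -0.08 on the log2 scale. Of 21 regulatory members 3 were lower (14.3%) and 0 higher, with a median of -0.07. Of all genes tested, 8.54% were lower and 6.48% higher, with a median of 0.00. DESeq2 and an unadjusted p under 0.05 likewise gave 0 higher members in both, against 8.07% and 14.4% of all genes. With standard subunits alone, which are 14 in the core and 17 in the regulatory particle, the medians were the same. Between families the median was 0.02 for *Psma*, -0.13 for *Psmb*, -0.08 for *Psmc* and -0.05 for *Psmd*. Without Saline 9 the medians were -0.04 in the core and -0.03 in the regulatory particle, without the 4 rats highest in striatal markers -0.04 and 0.00, and with span offsets -0.01 and -0.04.

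The ratio between both parts was almost equal in the groups. The mean log2 level of the core members ran from 5.10 to 5.34 in LSD-treated rats and from 5.12 to 5.61 in controls, and that of the regulatory members from 5.89 to 6.12 and from 5.94 to 6.33. Saline 9 held the highest value of both. The core mean minus the regulatory mean averaged -0.77 ± 0.056 (SD, n = 10) after LSD and -0.77 ± 0.051 (SD, n = 10) after saline, ranging from -0.85 to -0.65 and from -0.84 to -0.67. Only its change between rats can be read, since its size depends on transcript lengths. With standard subunits alone, the difference averaged -0.64 ± 0.045 (SD, n = 10) after LSD and -0.63 ± 0.054 (SD, n = 10) after saline. The place of single rats depended on the members used. LSD 3 had the highest difference of all rats with all members (-0.65). With standard subunits it had -0.67, in an LSD range of -0.69 to -0.56.

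**Figure D3:**
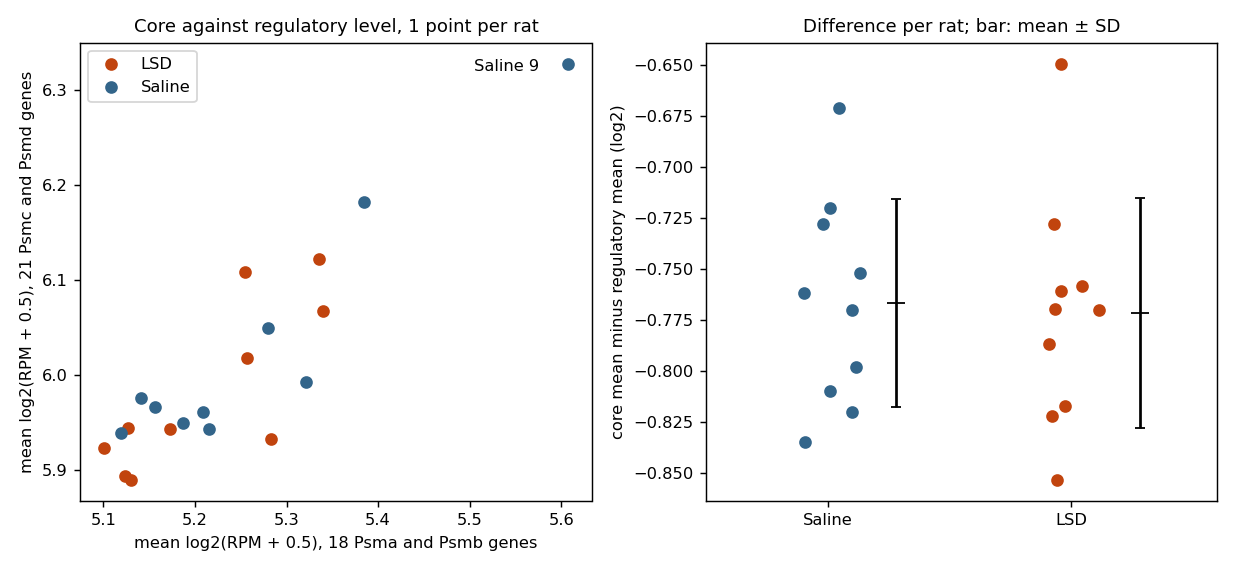
Left, mean log2(RPM + 0.5) of the 18 core genes (horizontal) against that of the 21 regulatory genes (vertical), 1 point per rat; right, core minus regulatory mean per rat in each group (log2; bar: mean ± SD, n = 10). Both levels rose together over rats, Saline 9 stands at the upper end, and the difference has nearly the same mean in both groups.

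Immunosubunits replace the catalytic subunits of the core in cells exposed to interferon, *Psmb8* in place of *Psmb5*, *Psmb9* of *Psmb6* and *Psmb10* of *Psmb7*. Their levels did not pass the test. *Psmb8* had 1.74, 2.15 and 4.35 RPM in the lowest, median and highest LSD-treated rat and 1.20, 2.18 and 3.29 RPM in controls, with a log2 fold change of 0.13 (95% interval -0.23 to 0.49) that was -0.01 without LSD 3. *Psmb9* had 3.41, 5.27 and 7.67 RPM against 3.46, 5.99 and 8.71 RPM (-0.17, 95% interval -0.46 to 0.13), and *Psmb10* had 19.0, 20.7 and 24.7 RPM against 19.1, 23.1 and 29.6 RPM (-0.13, 95% interval -0.26 to 0.01).

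The log2 ratio of each immunosubunit to its catalytic counterpart is 1 value per rat. For *Psmb8* to *Psmb5* it was -6.37, -5.95 and -5.00 in the lowest, median and highest LSD-treated rat and -7.12, -6.38 and -5.50 in controls. All 10 LSD-treated rats lay above the control median, and 5 controls lay within the LSD range. The difference in means was 0.36 (SE 0.193) and did not pass an exact two-sided permutation test over all 184756 splits of the rats (p = 0.0736, 0.221 after Benjamini-Hochberg adjustment over the 3 ratios). The differences were -0.03 (SE 0.160) for *Psmb9* to *Psmb6* and 0.00 (SE 0.0673) for *Psmb10* to *Psmb7*, with an adjusted p of 0.996 for both in the exact permutation test. The read counts of *Psmb8*, 17 to 88 per library, add counting error to its ratio.

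**Figure D4:**
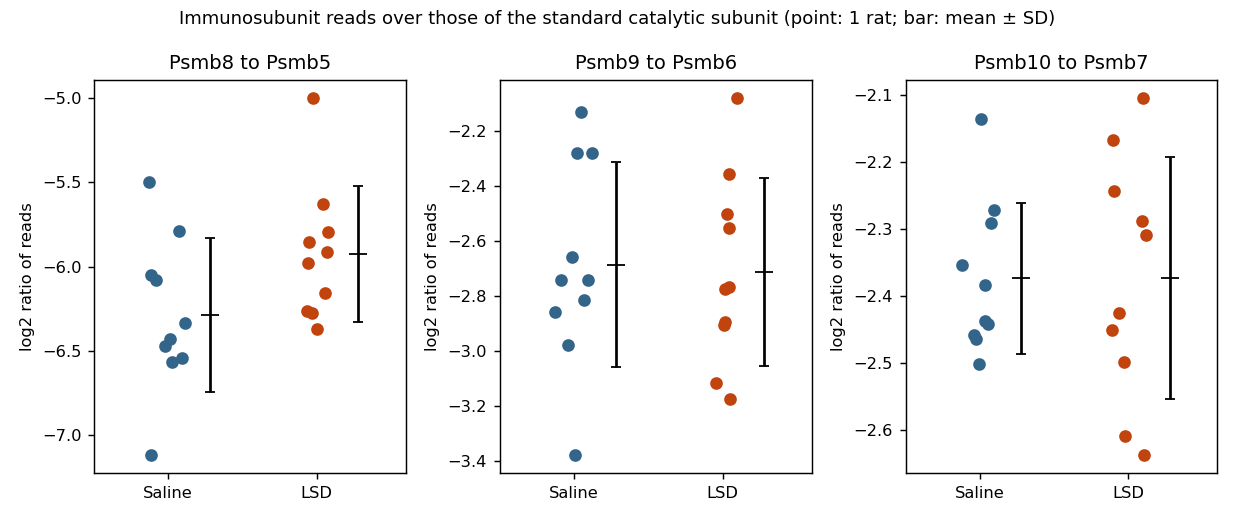
Log2 ratio of reads of each immunosubunit gene to its standard catalytic counterpart per rat (vertical axes, log2, with different ranges), by group; point: 1 rat, bar: mean ± SD, n = 10. All LSD points of *Psmb8* to *Psmb5* lie above the control median of -6.38, and the groups coincide in the other panels.

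Within groups, the immunosubunits were set against the mean level of 12 antigen presentation genes and of 7 microglial markers over the 20 rats, with group means removed. Of 6 relations, 3 passed a permutation test with 100000 resamples after adjustment by Pearson's r and 0 by Spearman's rho. *Psmb9* rose with the antigen presentation genes (r = 0.59, adjusted p = 0.0327; rho = 0.54, adjusted p = 0.0968; permutation test). *Psmb10* and *Psmb8* rose with the microglial markers (r = 0.57, adjusted p = 0.0343, and r = 0.50, adjusted p = 0.0499995; rho = 0.40 and 0.38, adjusted p = 0.147 for both; permutation test). The 3 other relations had r of 0.45 (*Psmb8* with antigen presentation), 0.19 (*Psmb10* with antigen presentation) and 0.47 (*Psmb9* with microglia).

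Both relations to microglial markers rested on the rats at the ends of the range, and without LSD 3 and Saline 9 r was 0.21 with *Psmb10* and 0.11 with *Psmb8*. For *Psmb9* and the antigen presentation genes r was 0.50 without LSD 3 and Saline 10, with p = 0.0355 before and 0.203 after adjustment (permutation test). LSD 3 had the highest *Psmb8* level of all rats and the highest sum of microglial markers, 481 RPM, against at most 384 RPM in controls. Single rats also decided the calls, and without LSD 3 alone r was 0.51 for *Psmb9*, 0.46 for *Psmb10* and 0.16 for *Psmb8* (adjusted p = 0.141, 0.141 and 0.626, permutation test). The relation of *Psmb10* to microglial markers also did not pass without Saline 4 or Saline 9 (r = 0.55 and 0.49), and that of *Psmb8* did not pass without LSD 1, 2, 3, 4, 5, 6, 9 or 10 or Saline 4 or 9 (r = 0.16 to 0.51). The relation of *Psmb8* to antigen presentation passed without LSD 8, Saline 2, Saline 3 or Saline 10 (r up to 0.65), and that of *Psmb9* to microglial markers without any 1 of 9 rats (r up to 0.57).

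The standard subunits varied together between rats of a group. The median pairwise Pearson's r, with group means removed, was 0.77 over the 91 pairs of core subunits, 0.55 over the 136 pairs of regulatory subunits and 0.68 over the 238 pairs of a core and a regulatory subunit, whereas pairs of a standard subunit and a gene outside the family had a median of 0.00. Immunosubunits followed the core less closely, with a median of 0.27 over 42 pairs, and they differed among themselves. By gene, r with the mean of the other core members was 0.60 for *Psmb10* (270 to 588 reads per library). It was 0.43 for *Psmb9* (49 to 171 reads) and 0.10 for *Psmb8* (17 to 88 reads). The part of counting error in these values was not tested. All these values share libraries and depth and are given as descriptions. Without Saline 9 the medians were 0.66, 0.38, 0.54, 0.00 and 0.12 in the same order. The mean log2 level of the standard core subunits was 6.10 to 6.18 in LSD 7 to 10 and 5.90 to 5.96 in LSD 1 to 6. LSD 7 to 10 had 22770382 to 25552681 reads on genes, and LSD 1 to 6 had 16346629 to 20374594. Among controls, Saline 2 (24201351 reads) stood at 6.27, Saline 9 (19805283) at 6.45 and Saline 10 (19368354) at 5.92. The part of depth or rat number in this was not tested.

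Some members, among them genes past the threshold, did not follow the core. Against the mean of the other core members, r was -0.31 for *Psmb11*, -0.14 for *Psmd2*, -0.11 for *Psme4*, 0.10 for *Psmb8* and 0.18 for *Psmg4*, compared with 0.94 for *Psmb7* and a median of 0.72 over the members. *Psmb11* (23 to 55 reads per library) and *Psmb8* (17 to 88 reads) are the members nearest to the read filter, where counting error is large relative to the level. The ubiquitin-binding base subunit *Psmd2* had 286, 320.2 and 336 RPM in the lowest, median and highest LSD-treated rat and 309.9, 344 and 378 RPM in controls (log2 fold change -0.11, adjusted p = 0.0974, edgeR). The genes outside the family most like the core mean over the 20 rats were *Atp6v1e1*, a subunit of the vacuolar proton pump, with r = 0.93, the translation factor gene *Eif1b* with 0.92 and *Bpgm*, which encodes an enzyme that makes bisphosphoglycerate, with 0.92. Without Saline 9 and LSD 10, r was 0.87, 0.88 and 0.82, and none of the 3 passed the test between groups.

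**Figure D5:**
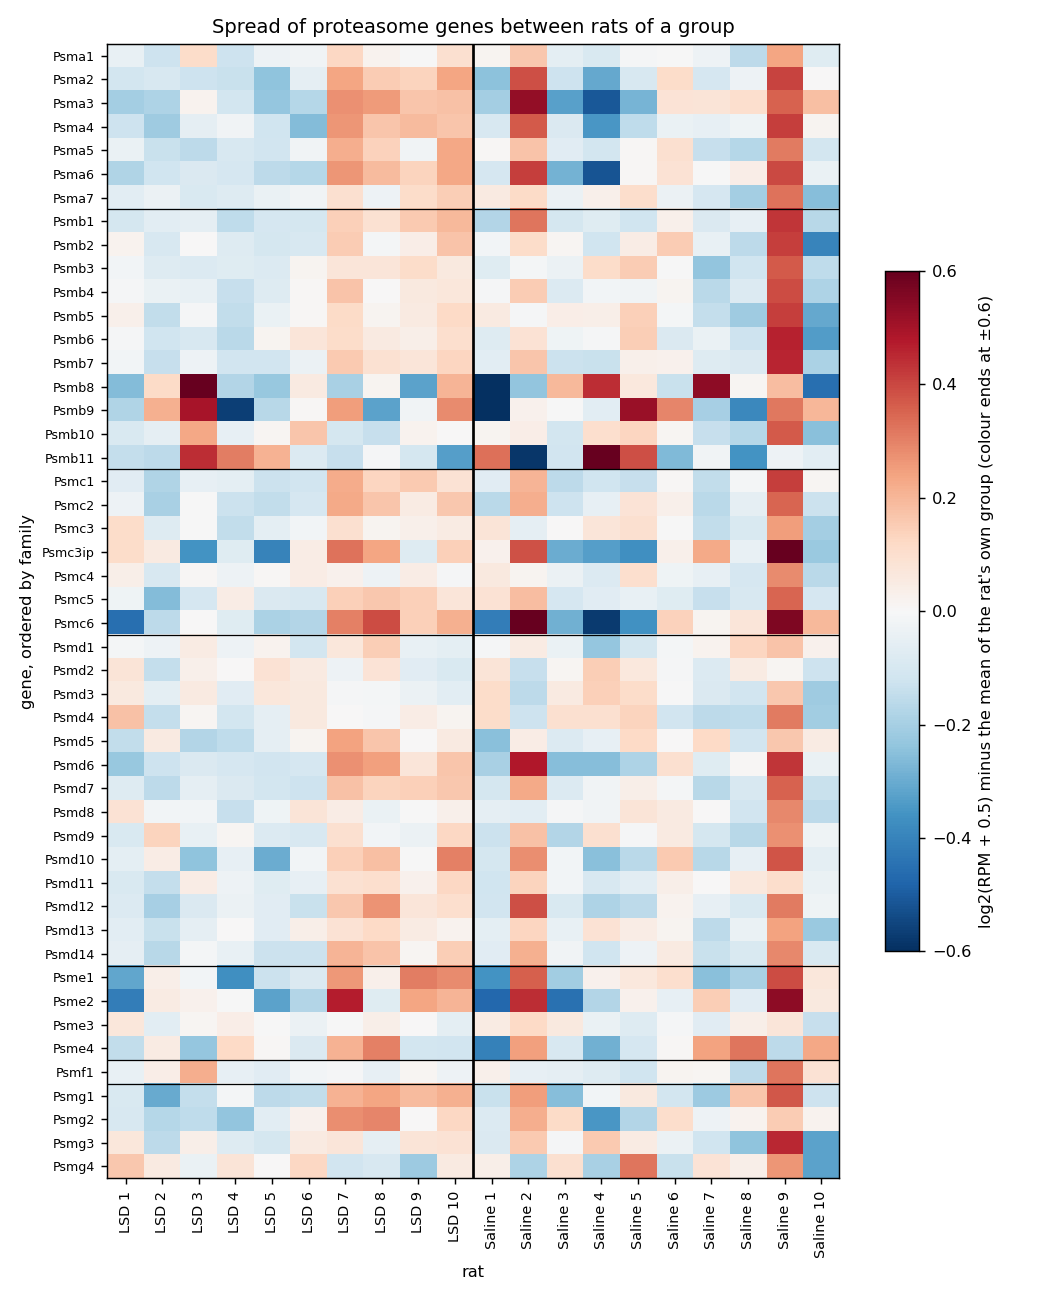
Deviation of each rat from the mean of its own group in log2(RPM + 0.5), for the 48 proteasome genes (vertical, ordered by family) in the 20 rats (horizontal); the colour scale ends at ±0.6. Saline 9 is high in nearly all genes, Saline 2 in many alpha subunits and LSD 7 to 10 in many core genes. *Psmb8*, *Psmb9* and *Psmb11*, which have few reads, follow patterns of their own.

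The spread between rats was smaller in the LSD group for most members, as for most genes, and the gap between the medians of the members depended on 1 control. The coefficient of variation was lower in LSD-treated rats for 44 of 48 members (91.7%, against 77.5% of all genes), with a median of 9.30% against 13.5% in controls. Without Saline 9 it was lower for 35 members (72.9%, against 70.9% of all genes), and the control median was 9.28%.

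The promoters of these genes were searched for motifs, since proteasome genes are known to be induced together through antioxidant response elements bound by the product of *Nfe2l1*. RefSeq promoters (build GRCr8, 250 bases before to 50 after the start site) were matched for 43 of the 48 members. The core of the antioxidant response element, TGACNNNGC on either strand, stood in 8 of them (18.6%, against 12.1% of 33469 promoters), the CCAAT box in 22 (51.2%, against 37.5%) and the GC box GGGCGG in 31 (72.1%, against 33.1%), each counted on both strands and without regard to overlap. Unlike the shares of all genes given elsewhere, the 33469 promoters were not limited to genes that passed the read filter, as the members did. Of the 7 genes past the threshold, *Psmb5* and *Psme4*, which differed in opposite directions, held the first motif. Their stretches are shown for that reason, 5′ to 3′ on the strand of the gene with the motif in capitals, from chr15:32047406-32047464 (minus strand, motif 60 bases upstream of the start site) and chr14:108706563-108706621 (plus strand, motif 55 bases upstream, read on the opposite strand).
Psmb5: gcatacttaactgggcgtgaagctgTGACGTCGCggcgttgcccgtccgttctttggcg
Psme4: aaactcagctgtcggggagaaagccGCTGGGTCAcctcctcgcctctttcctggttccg
These matches describe letters in the window and are not shown to be sites of binding. The log2 fold change of *Nfe2l1* itself was -0.05 (adjusted p = 0.367, edgeR), and 0 of the 6 genes tested of its list of transcriptional control passed in edgeR or DESeq2 or had an unadjusted p under 0.05.

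Genes that work with the proteasome were followed in lists. Of 9 associated factors tested, 1 was higher and 1 lower in edgeR, where 6.48% and 8.54% of all genes were, and DESeq2 called 2 higher and 1 lower. *Adrm1*, a ubiquitin receptor of the base like *Psmd4*, had 81.1, 86.7 and 95.4 RPM in the lowest, median and highest LSD-treated rat and 85.4, 99.8 and 113 RPM in controls (log2 fold change -0.18, adjusted p = 0.0339, edgeR). *Zfand5*, a zinc finger protein that binds and activates the proteasome, had 135, 146 and 166 RPM against 104, 126 and 163 RPM (0.21, adjusted p = 0.0416, edgeR). *Ube3c*, a ubiquitin ligase bound to the proteasome, had an unadjusted p under 0.05 and did not pass (0.13, adjusted p = 0.0636, edgeR).

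Of 12 antigen presentation genes, the chaperone gene *Canx* was higher (log2 fold change 0.23, adjusted p = 0.0284, edgeR). *Calr* (-0.18, adjusted p = 0.00757, edgeR) and the peptide-loading gene *Tapbp* (-0.32, adjusted p = 0.0253, edgeR) were lower. DESeq2 likewise called 1 higher and 2 lower. Of all genes, 6.48% were higher and 8.54% lower in edgeR, and 8.07% and 10.3% in DESeq2. Of 10 ubiquitin shuttle and segregase genes 0 passed in edgeR or DESeq2, with log2 fold changes from -0.13 to 0.13. At an unadjusted p under 0.05 in edgeR, 1 of them was higher and 2 lower, where 14.4% and 16.4% of all genes were.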

How the data were processed

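Total RNA from the mPFC of 20 rats was poly(A)-selected and sequenced, with 1 library per rat. The deposited values are raw gene counts, made by the authors with TrimGalore for trimming, HISAT2 for alignment (rn6) and HTSeq-count, with neither normalisation nor filter. Versions, annotation and strand setting are not given in the sources used here, so reads of overlapping antisense genes or of near-identical copies cannot be assigned with certainty. The 5 unnamed entries at the end of the matrix, which held 25.5% to 29.0% of all reads, were left out. Groups were taken from the sample labels.

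A gene was kept when 10 or more libraries held 5 or more of its reads. Counts were scaled by TMM and tested over all 16605 genes with the quasi-likelihood F test of edgeR 4.0.16 in R 4.3.3, adjusted after Benjamini and Hochberg, at a threshold of 0.05. Intervals of log2 fold changes are the estimate ± 1.96 standard errors. Levels entered means and correlations as log2(RPM + 0.5), ratios were taken after adding 0.5 reads, and permutation tests were two-sided and run with scipy 1.17.1 and numpy 2.4.6 (Python 3.11.15). The scripts were checked on simulated counts. The p-values set a difference or a correlation against the spread between these rats. Depth was 11098076 to 25552681 reads on genes per rat, and counting error, which is part of that spread, is larger relative to the level in genes with few reads such as *Psmb8*.

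The fit was repeated with DESeq2 1.42.0, with total count scaling, median-ratio size factors, other filters, reads drawn to equal depth, offsets for genomic span (RefSeq, GRCr8, smoothed over 5 of 50 bins and centred in each rat), the replicate number as a block, and each rat left out. The run without the 4 rats highest in striatal markers and the one with standard subunits alone were added after the data were seen. The members and the lists of pathway and marker genes were chosen with earlier results of these data known. Named genes are the members past the threshold, the catalytic subunits and immunosubunits, the *Psme*, *Psmf* and *Psmg* members, the member nearest to the threshold in each direction, pathway genes past it and the 3 genes most like the core mean. The result of 1 pathway list is not reported here. *Psma3*, *Psma7*, *Psmc6*, *Psmd2* and other members named as the ends of a range or in a count, and the pathway gene *Ube3c*, were chosen after their values were seen.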

Additional observations from a re-analysis of the deposited data

Results flagged for a closer look

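In 106 groups of 10 rats examined, that is, the normalised RPM of each member and a few derived values by group, 5 held 1 rat far above the other 9, by Dixon's criterion, where chance alone sets such a rat apart in about 1 group in 20. Saline 9 stood apart in 3 of them. It had 163 RPM of the catalytic subunit gene *Psmb7*, against 132.8 RPM in the next control, 78.9 RPM of the lid subunit gene *Psmd8*, against 68.0 RPM, and 48.7 RPM of the inhibitor gene *Psmf1*, against 41.4 RPM. LSD 3 stood apart in 2, with 4.35 RPM of the immunosubunit gene *Psmb8*, against 2.73 RPM in the next LSD-treated rat, and 45.2 RPM of *Psmf1*, against 39.9 RPM. Saline 9 was also among the 4 rats highest in striatal markers, and LSD 3 had the highest sums of microglial and lymphocyte markers. The lymphocyte sum, 6.13 RPM in LSD 3, holds only *Ptprc* and *Cd3e*. Since *Cd3e* had at most 0.67 RPM in LSD-treated rats, that sum is mostly *Ptprc*. The part of these markers in the values of both rats was not tested. *Psmd8* passed in edgeR with Saline 9 left out.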

How the results depend on the processing

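The members called were the same 7 under median-ratio size factors, with reads drawn to equal depth and with the replicate block. The block gave 1 higher and 6 lower (8.16% and 9.67% of all genes). The ratio of *Psmb8* to *Psmb5* had an adjusted p of 0.234 in an exact sign-flip test over same-numbered rats. Same-numbered rats correlated with r of -0.23 to 0.42, over 0.1 in 6 of 10 pairs. Their mean r was 0.13, against -0.01 between an LSD-treated rat and controls of other numbers. Of 20 rats, 3 correlated best with their own number. The main fit did not pair rats by number, and whether the number marks pairs was not tested. DESeq2 called 1 higher and 7 lower (8.07% and 10.3% of all genes), the filter at 20 reads the same numbers (8.1% and 10.5%), and no filter 1 and 4 (3.81% and 3.32%). Total count scaling left 2 lower (5.17%), span offsets left 2 lower and 0 higher (7.22% and 3.86%), and the run without the 4 rats highest in striatal markers gave 5 higher (10.2%); total count scaling moved the median of all genes from 0.00 to 0.05, and the causes were not tested. With a rat left out, 0 to 2 were higher and 5 to 8 lower, against 3.97% to 10.1% and 5.46% to 11.2% of all genes. Both the highest counts and the highest shares came from the fit without Saline 2. Estimates near 0 changed sign: *Psme1* to 0.016 (total count scaling), 0.061 (span offsets) and 0.030 (without the 4 rats), *Psmf1* to 0.034 (total count scaling), 0.0071 (no filter), 0.020 (equal depth) and 0.0094 (without the 4 rats), and *Psmg2* to 0.014, 0.0030 and 0.033 under the settings named for *Psme1*. With a rat left out, *Psmb8* ran from -0.0093 to 0.21, *Psme1* from -0.062 to 0.022, *Psme2* from -0.017 to 0.12, *Psmf1* from -0.036 to 0.030, *Psmg2* from -0.065 to 0.00015, the ratio of *Psmb10* to *Psmb7* from -0.030 to 0.030 and that of *Psmb9* to *Psmb6* from -0.10 to 0.036. The correlations with antigen presentation ran from 0.18 to 0.65 for *Psmb8*, 0.51 to 0.74 for *Psmb9* and -0.049 to 0.40 for *Psmb10*, and those with microglia from 0.16 to 0.72, 0.33 to 0.57 and 0.46 to 0.64. Without centring within groups, 0 of the 3 relations passed by permutation test (*Psmb9* with antigen presentation 0.57, *Psmb8* with microglia 0.51, *Psmb10* with microglia 0.50), and with total count scaling *Psmb9* with microglia passed (r = 0.57, adjusted p = 0.0161). Transcript length, GC content and strand could not be examined, and reads of *Psmb3* may be shared with pseudogenes.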

Other observations

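Markers of the other cell types in the tissue were also followed between groups. By edgeR, *Gad2* was higher and *Slc32a1* lower among 3 inhibitory neuron genes, *Slc1a2* was higher among 4 astrocyte genes and *Hbb* was lower among 3 blood genes. Of all genes, 6.48% were higher and 8.54% lower. Of 4 excitatory neuron, 3 neuron, 4 oligodendrocyte, 2 oligodendrocyte precursor, 7 microglial, 3 endothelial and 2 lymphocyte genes tested, 0 passed in edgeR. At an unadjusted p under 0.05, where 16.4% of all genes were lower, 1 gene was lower in each of the excitatory neuron, neuron, oligodendrocyte and endothelial lists. In the oligodendrocyte precursor, microglial and lymphocyte lists 0 were, and DESeq2 called 1 endothelial gene lower. All 3 blood genes had negative log2 fold changes, from -0.50 to -0.29. Of these, 2 had an unadjusted p under 0.05 in edgeR, and DESeq2 called 2 lower. All 4 oligodendrocyte log2 fold changes were negative, with sums of 1883 to 5094 RPM in LSD-treated rats and 1817 to 6671 RPM in controls. The part of these cells in the levels of proteasome genes was not tested.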
